A study of Mus musculus with 2 samples.

Results

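PACAP and VIP signalling rests on 5 genes: Adcyap1 and Vip, which encode the peptides, and Adcyap1r1, Vipr1 and Vipr2, which encode the receptors. These 5 of the 32285 counted genes were taken by symbol and followed through snRNA-seq data (single nuclei, RNA counted in each) from the hypothalamic preoptic area (POA), the brain region that the ultrasound was aimed at. The US+ library held nuclei of 4 ultrasound-stimulated mice and the US- library nuclei of 4 sham-treated mice. All were wild type and 6 to 9 weeks old (C57BL/6NCrl is the wild-type strain of the study's methods, and the sexes in each pool are not given in the sources used here), and the tissue was taken about 1 h after stimulation. The homogenates of the 4 mice of a group were pooled and the nuclei sorted for NeuN, a protein of neuronal nuclei, so each group is 1 library and the spread between mice cannot be seen. No P value is therefore given, and every US+ to US- ratio compares 2 libraries, not 2 conditions.

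PACAP and VIP are related neuropeptides that act on G protein-coupled receptors of the secretin-glucagon family, which raise cyclic AMP (cAMP) through the stimulatory G protein. PAC1, the product of Adcyap1r1, prefers PACAP over VIP, whereas VPAC1 (Vipr1) and VPAC2 (Vipr2) bind both peptides. In the preoptic hypothalamus, PACAP marks glutamatergic neurons that take part in the control of body temperature, and in the suprachiasmatic nucleus, the circadian pacemaker just behind the POA, VIP neurons keep VPAC2-expressing neurons in step. VIP is also known from interneurons of the cortex.

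The genes lie on 5 chromosomes of the mouse genome (GRCm38, plus strand in each case). Adcyap1 is at chr17:93199017-93206537, Vip at chr10:5639218-5647617, Adcyap1r1 at chr6:55451978-55501451, Vipr1 at chr9:121642716-121672954 and Vipr2 at chr12:116077726-116146261. Vipr2 is overlapped by the antisense gene Gm20658. The study's methods give default parameters for the counting and do not state strand. How well reads of Vipr2 and of its antisense partner were told apart was not tested.

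The VIP gene is a textbook target of the cAMP-responsive factor CREB, whose element reads TGACGTCA. The 250 bases before each gene's start were read from RefSeq (GRCm38.p6; all 5 genes matched) and searched on both strands for TGACGTC, which is GACGTCA on the other strand and lies within the longer element. One site was present before Adcyap1, 91 bases from the start, and 1 before Vip, 79 bases from the start, while the 3 receptor promoters held none. RefSeq also holds a later Adcyap1 start, from which the same site lies 242 bases away. Of 32851 mouse promoters of the same length, 2.78% held this motif, and 3.16% of 27025 genes had it in at least 1 promoter. The full TGACGTCA was in none of the 5 promoters and in 1.55% of all. The shorter TGACG, which is part of both other motifs, was also in the Vipr1 promoter, 13 bases from the start, and in 17.8% of all promoters. A match describes letters in this window and is not a bound site. The 2 peptide promoters are shown because they hold the motif, with TGACGTC in capitals (Adcyap1 at chr17:93198767-93199016, Vip at chr10:5638968-5639217, plus strand, 5′ to 3′).
Adcyap1: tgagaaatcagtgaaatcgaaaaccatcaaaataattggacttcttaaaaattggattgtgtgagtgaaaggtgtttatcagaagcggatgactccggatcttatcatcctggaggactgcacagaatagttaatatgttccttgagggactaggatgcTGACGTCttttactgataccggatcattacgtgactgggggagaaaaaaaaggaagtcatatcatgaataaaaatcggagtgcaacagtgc
Vip: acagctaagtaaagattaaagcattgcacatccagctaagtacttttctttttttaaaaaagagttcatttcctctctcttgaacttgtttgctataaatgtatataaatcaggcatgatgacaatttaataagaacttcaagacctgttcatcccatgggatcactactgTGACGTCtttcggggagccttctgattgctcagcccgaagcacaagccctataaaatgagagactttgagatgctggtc

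The libraries held 12075 barcodes (US+) and 11725 (US-), of which 11899 and 11663 passed the study's limits on genes and mitochondrial counts. Nuclei with 200 to 7500 genes, at most 5% mitochondrial UMIs (unique molecular identifiers, counted mRNA molecules) and at least 2000 UMIs were kept. These were 9912 US+ nuclei (82.1% of barcodes) with 84857570 UMIs and 11040 US- nuclei (94.2%) with 98904011 UMIs. The median depth was 7376 UMIs in US+ and 7663.5 UMIs in US-. The 2 libraries share 29 barcodes, 19 of them kept in both, against 20952 nuclei in all. Summed markers of astrocytes (110 CPM in US+, 64.6 CPM in US-), oligodendrocytes (120 and 75.4 CPM), microglia (165 and 151 CPM) and vessels (21.9 and 12.8 CPM) were higher in US+ for every gene of each list. Summed markers of striatal projection neurons were lower in US+ for all 10 genes (1437 CPM in US+, 2251 CPM in US-). Markers of suprachiasmatic neurons were higher in US+ for 8 of 9 genes (275 CPM in US+, 173 CPM in US-).

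Each gene's UMIs were summed over the nuclei of a library and given per 1000000 UMIs of those nuclei (CPM). Intervals are exact 95% intervals (Poisson for a CPM, conditional for a ratio, binomial for a share) and cover counting error only. They take UMIs as independent, whereas Vip and Vipr2 UMIs were clumped in few nuclei, so their true counting error is larger. A nucleus was striatal-type with at least 2 UMIs of Rarb and at least 1 of Drd1 or Drd2. Others were GABAergic with at least 2 UMIs of Gad1, Gad2 and Slc32a1 and none of the glutamate transporters Slc17a6, Slc17a7 and Slc17a8, or glutamatergic where transporter UMIs were above GABA UMIs. The glutamatergic class held 1009 US+ nuclei (10.2%) and 861 US- nuclei (7.80%), and the GABAergic class 4636 (46.8%) and 5127 (46.4%). The striatal-type class held 587 US+ nuclei (5.92%) and 2017 US- nuclei (18.3%), and 3680 US+ and 3035 US- nuclei met no rule and are called other nuclei. Fewer nuclei of a type and less RNA per nucleus cannot be told apart in the sums over all nuclei.

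A gene counted as past the fold at a ratio of at least 1.5, or at most 1 over 1.5, with at least 50 UMIs over both libraries. Over all nuclei, 3 of the 5 genes were past the fold upwards in US+ (Adcyap1, Vip and Vipr2), against 7.67% of the 20122 genes tested. Vipr1 alone was past it downwards, against 3.36% of genes. In glutamatergic nuclei none of the 3 members with enough UMIs was past the fold (3.2% of 14083 genes were higher and 1.95% lower). In GABAergic nuclei the same 3 members were past the fold upwards and Vipr1 downwards (5.14% of 18218 genes were higher and 2.82% lower). Of these, Adcyap1 was after thinning detected there no more often than in the striatal projection neuron-like clusters. The Vip ratio was 0.983 with equal weight for each cluster, however few its nuclei, and the Vipr1 ratio was 1.46 without Rarb-rich clusters. In striatal-type nuclei Adcyap1 and Vip were past the fold upwards and Vipr1 downwards (6.39% of 14679 genes were higher and 8.88% lower). The interval of the Adcyap1 ratio there includes 1. The median ratio of all tested genes was 1.04 over all nuclei, 0.997 in glutamatergic, 1.02 in GABAergic and 0.955 in striatal-type nuclei.

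**Figure D1:**
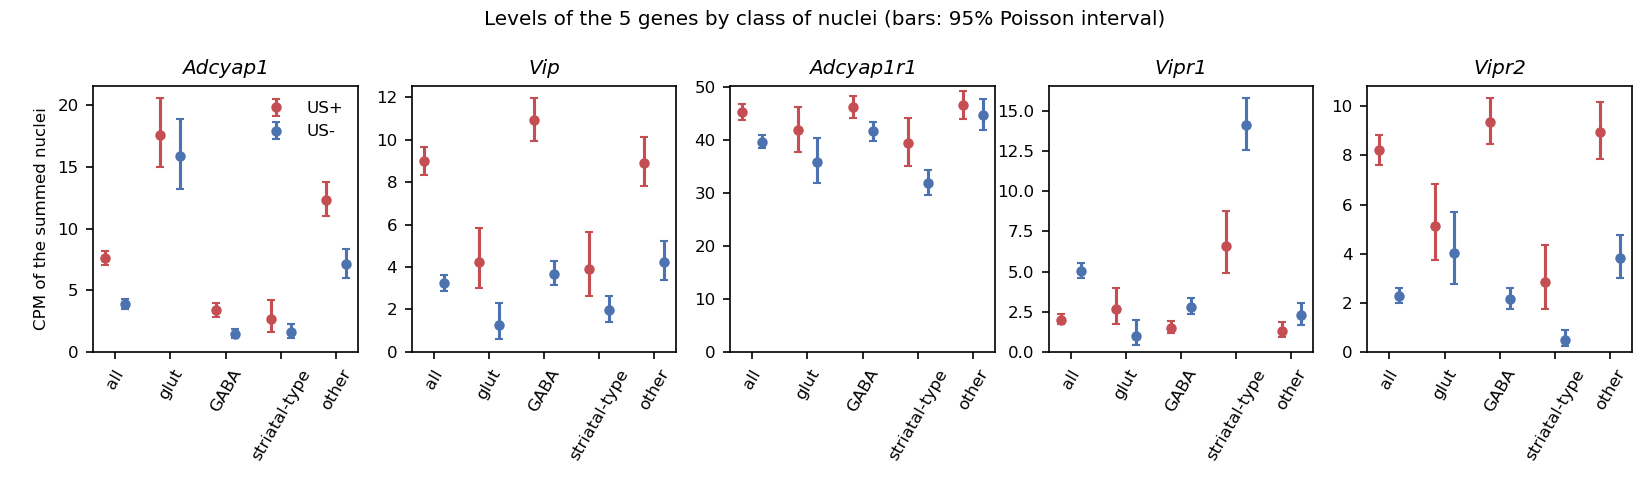
CPM of the 5 genes (y axis, from 0; a panel each) in all nuclei and 4 classes (x axis), with US+ in red left of US- in blue and bars for the 95% Poisson interval. Adcyap1 is highest in glutamatergic nuclei of both libraries (17.6 CPM in US+, 15.9 CPM in US-) and Vipr1 in striatal-type nuclei (6.62 and 14.1 CPM).

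Adcyap1, the PACAP precursor, was higher in US+ over all nuclei and nearly level between libraries where it was most abundant. Over all nuclei it stood at 7.60 CPM in US+ (95% interval 7.03 to 8.21; 645 UMIs) against 3.85 CPM in US- (3.48 to 4.26; 381 UMIs), a ratio of 1.97 (1.74 to 2.25). In glutamatergic nuclei it was 17.6 CPM in US+ (15 to 20.6) against 15.9 CPM in US- (13.2 to 18.9), and the interval of the ratio, 1.11 (0.872 to 1.41), includes 1. In GABAergic nuclei it was 3.39 CPM in US+ (2.85 to 3.99) against 1.47 CPM in US- (1.15 to 1.86), a ratio of 2.30 (1.72 to 3.10). Striatal-type nuclei held 2.70 CPM in US+ (1.65 to 4.18) against 1.6 CPM in US- (1.12 to 2.23), and the interval of the ratio, 1.69 (0.922 to 3.00; 55 UMIs), includes 1. With equal weight for each cluster, however few its nuclei, that ratio was 0.487. Adcyap1 was thus ordered glutamatergic, other, then GABAergic and striatal-type in both libraries, and the intervals of the GABAergic and striatal-type classes overlap in each. The glutamatergic level was 5.20 times the GABAergic one in US+ (4.12 to 6.57) and 10.8 times in US- (8.00 to 14.6). Other nuclei, which include those with transcripts of both transmitters, held 12.3 CPM in US+ against 7.11 CPM in US-.

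To place the genes more finely, the nuclei of both libraries were clustered together with the 5 members and immediate-early genes left out of the clustering genes, which gave 35 clusters. Gm20658 was not left out. Clusters served to show where the genes lie and were named from marker lists. Adcyap1 had a median of 2.54 CPM over clusters, both libraries summed, with a range of 0 to 38.8 CPM and 2 clusters at 0. Its 5 highest clusters, chosen after their values were seen, held 62.9% of its UMIs in 15.4% of nuclei. None of the 5 clusters with enough Adcyap1 UMIs was past the fold in either direction.

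The highest was cluster 28, led by Gm28526, Opn5 and Slc38a11 with 108 nuclei in each library, at 43.6 CPM in US+ (30.8 to 59.8) against 33.8 CPM in US- (22.5 to 48.9). Opn5 encodes a violet-light photopigment found in mouse preoptic neurons that regulate heat production. The marker lists name cluster 28 preoptic glutamatergic-like, but its GABA transcripts (175 CPM of Gad1, Gad2 and Slc32a1) were above its glutamate transporter transcripts (112 CPM), so it is called the Opn5 cluster. Cluster 3, preoptic glutamatergic-like and led by Tmem163, Skor2 and Clca3a2, held 27.5 CPM in US+ against 27.0 CPM in US-, a ratio of 1.02 (0.781 to 1.34). The other 3 stayed unnamed. Cluster 15, led by the hypothalamic transcription factor gene Sim1, Trh, which encodes thyrotropin-releasing hormone, and Angpt1, was at 21.7 CPM in US+ against 29.2 CPM in US-. Cluster 12, led by Ebf1, Sim1 and Ebf2, was at 20.2 CPM in US+ against 29.0 CPM in US-, and cluster 13 (Samd3, Emx2os, Gm28526) at 21.3 and 17.5 CPM. In the 5 clusters together, Adcyap1 was 24.1 CPM in US+ (21.8 to 26.6) against 25.7 CPM in US- (22.6 to 29.2), a ratio of 0.937 (0.797 to 1.10). They made up 1987 of the US+ nuclei and 1244 of the US- nuclei. In the other clusters, with 7925 US+ and 9796 US- nuclei, Adcyap1 was 3.60 CPM in US+ against 1.51 CPM in US-, a ratio of 2.38 (1.92 to 2.96).

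Clusters were not captured in the same shares. Cluster 12 had 518 US+ nuclei and 141 US- nuclei, and cluster 15 had 429 and 191. With each cluster weighted as in both libraries together, the Adcyap1 ratio over all nuclei was 1.20. With the observed cluster shares but 1 level per cluster for both libraries, it was 1.64. Within clusters, Adcyap1 was higher in US+ in 28 and lower in 5 of 35. Only 5 of the 35 had enough Adcyap1 UMIs, and none of those was past the fold. All clusters come from the same pair of libraries, so their directions are not independent. No count of this kind for all genes is set beside it.

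**Figure D2:**
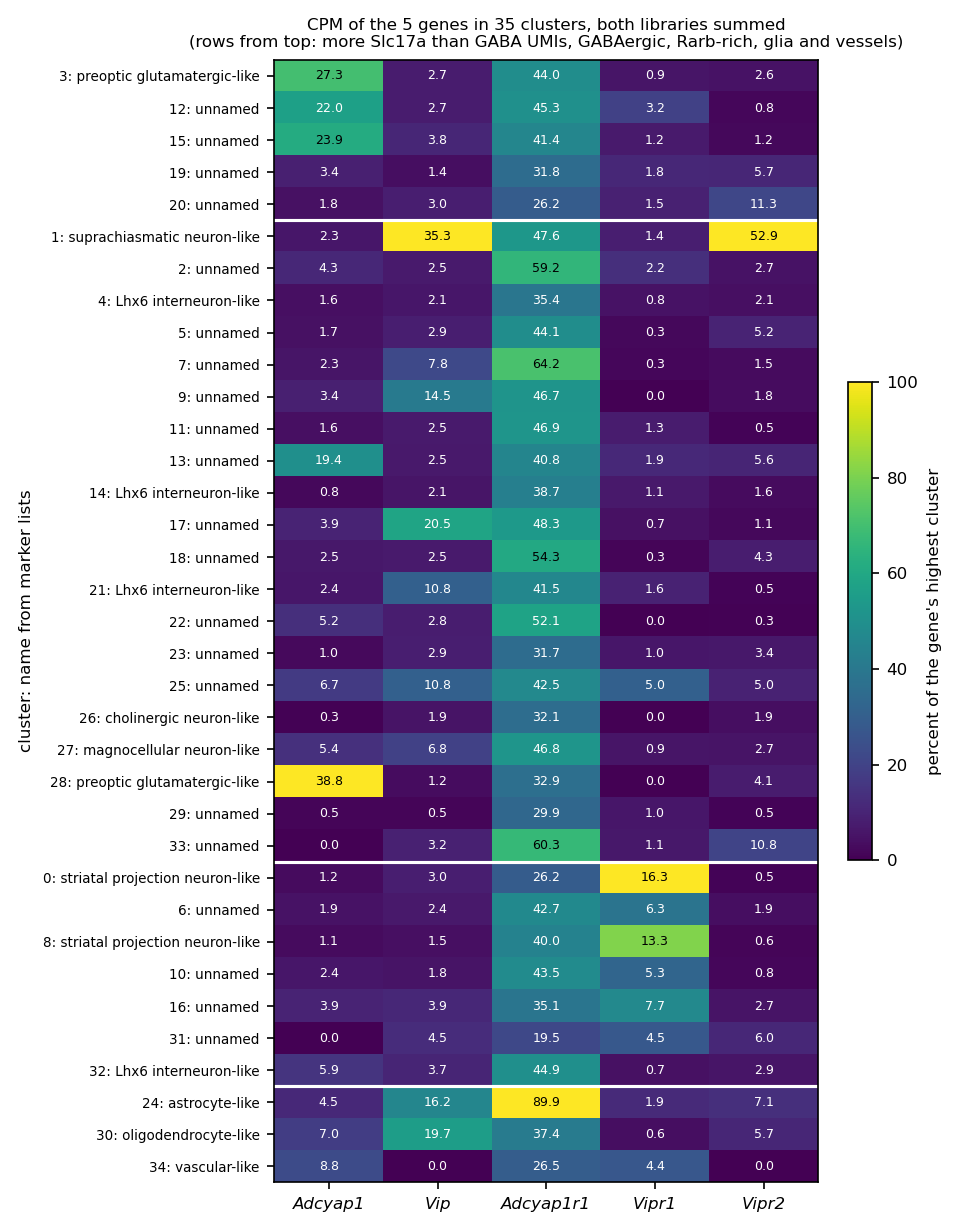
Heat map of the CPM (printed in each cell, both libraries summed) of the 5 genes (columns) in 35 clusters (rows, with the name from marker lists), coloured by the percent of each gene's highest cluster. Adcyap1 (up to 38.8 CPM), Vip (35.3), Vipr1 (16.3) and Vipr2 (52.9) peak in a few clusters, whereas Adcyap1r1 is between 19.5 and 89.9 CPM in every cluster.

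Vip, the VIP precursor, was higher in US+ over all nuclei and lay mostly outside glutamatergic nuclei. Over all nuclei it stood at 8.98 CPM in US+ (8.35 to 9.64; 762 UMIs) against 3.24 CPM in US- (2.89 to 3.61; 320 UMIs), a ratio of 2.78 (2.43 to 3.17). GABAergic nuclei held 10.9 CPM in US+ (9.94 to 12) against 3.69 CPM in US- (3.17 to 4.28), a ratio of 2.96 (2.48 to 3.54). With equal weight for each cluster, however few its nuclei, this ratio was 0.983, on the other side of 1. How far that value rests on single nuclei was not tested. Glutamatergic nuclei held 4.24 CPM in US+ (38 UMIs) against 1.26 CPM in US- (10 UMIs), under the limit of 50 UMIs. The level in glutamatergic nuclei was 0.388 times that in GABAergic nuclei in US+ (0.271 to 0.541) and 0.342 times in US- (0.161 to 0.643). Striatal-type nuclei, a class not known for Vip, still held 3.92 CPM in US+ (2.63 to 5.63) against 1.97 CPM in US- (1.43 to 2.66). Vip intervals of the glutamatergic and striatal-type classes overlap within each library.

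Over clusters, Vip had a median of 2.91 CPM and a range of 0 to 35.3 CPM. The highest was cluster 1, suprachiasmatic neuron-like and led by Gm20658, Vipr2 and 1700042O10Rik, at 36.3 CPM in US+ (32.0 to 41.0) against 32.1 CPM in US- (25.3 to 40.2), a ratio of 1.13 (0.871 to 1.48). It held 999 US+ nuclei (10.1% of the library) and 342 US- nuclei (3.10%), so its Vip level was close between libraries and its share was not. Only part of cluster 1 carried the full set of suprachiasmatic markers, as given below. Clusters 9 (Esr1, Ntng1, Ptprk) and 17 (Esr1 and Spef2 among its leading genes), both led in part by the oestrogen receptor gene Esr1 and chosen after their values were seen, were together at 19.5 CPM in US+ against 13.6 CPM in US-, a ratio of 1.43 (1.04 to 1.97). Cluster 7 (Ecel1, C1ql3, Pgm5) was at 12.5 CPM in US+ against 2.56 CPM in US-, a ratio of 4.91 (2.28 to 12.1). In US+, 2 nuclei of cluster 7 held at least 5 Vip UMIs each, and how far the ratio rests on them was not tested. Of the 4 clusters with enough Vip UMIs, 2 were past the fold, both higher in US+. Without cluster 1, Vip over all nuclei was 6.49 CPM in US+ against 2.54 CPM in US-, a ratio of 2.56 (2.19 to 2.99). Weighting clusters as in both libraries together gave 1.6, and Vip was higher in US+ in 30 and lower in 4 of 35 clusters. The directions of these clusters are not independent either, since all come from the same pair of libraries.

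Glial clusters held Vip as well. The astrocyte-like cluster 24 was at 18.8 CPM in US+ against 9.38 CPM in US-. In the oligodendrocyte-like cluster 30 the value was 8.52 CPM in US+ against 70.3 CPM in US-, and all 20 UMIs of US- lay in 1 of its 46 nuclei. Nuclei under 2000 UMIs, which were left out of all other values, held 35 CPM of Vip in US+ (66 UMIs) and 7.89 CPM in US- (5 UMIs). Free RNA as a source of the low Vip level across clusters was not tested.

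Adcyap1r1, which encodes PAC1, was the member detected most widely and differed least between libraries. Over all nuclei it stood at 45.3 CPM in US+ (43.9 to 46.7; 3842 UMIs) against 39.7 CPM in US- (38.5 to 41.0; 3927 UMIs), a ratio of 1.14 (1.09 to 1.19). In glutamatergic nuclei it was 41.8 CPM in US+ (37.7 to 46.3) against 35.9 CPM in US- (31.9 to 40.4). In GABAergic nuclei it was 46.2 CPM in US+ (44.2 to 48.3) against 41.6 CPM in US- (39.8 to 43.5), and in striatal-type nuclei 39.5 CPM (35.1 to 44.3) and 31.9 CPM (29.6 to 34.4). All ratios were between 1.04, in other nuclei, and 1.24, in striatal-type nuclei, none past the fold. Its glutamatergic level was 0.905 times the GABAergic one in US+ (0.808 to 1.01) and 0.863 times in US- (0.760 to 0.978), so these classes do not differ beyond counting error in US+ and differ little in US-. Glutamatergic and striatal-type intervals overlap in both libraries.

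No cluster was at 0 for Adcyap1r1. The median over clusters was 42.5 CPM, the range 19.5 to 89.9 CPM, and 1 cluster was above 2 times the median. That was the astrocyte-like cluster 24, a cell type in which PAC1 is known to be present, at 73.3 CPM in US+ (58.3 to 91; 82 UMIs in 190 nuclei) against 134 CPM in US- (101 to 173; 57 UMIs in 81 nuclei). Its ratio of 0.548 (0.386 to 0.782) was the only one past the fold among the 33 clusters with enough UMIs. The next clusters were 7, at 59.6 CPM in US+ against 69.4 CPM in US-, and 2, at 59.3 and 59.1 CPM. The lowest, cluster 31, was at 19.7 CPM in US+ against 19.4 CPM in US-. At a finer clustering (resolution 1.6) most of the astrocyte-like nuclei fell in finer cluster 42, at 106 CPM in US+ against 213 CPM in US-, a ratio of 0.497 (0.314 to 0.786). In the rest, finer cluster 50, it was 54.7 CPM in US+ against 74.0 CPM in US-, and the interval of the ratio, 0.740 (0.413 to 1.37), includes 1.

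Vipr1, which encodes VPAC1, was lower in US+ over all nuclei and was concentrated in striatal-type nuclei, of which US+ held fewer. Over all nuclei it stood at 2.02 CPM in US+ (1.72 to 2.34; 171 UMIs) against 5.06 CPM in US- (4.62 to 5.52; 500 UMIs), a ratio of 0.399 (0.333 to 0.475). Striatal-type nuclei held 6.62 CPM in US+ (4.90 to 8.76; 49 UMIs) against 14.1 CPM in US- (12.6 to 15.8; 308 UMIs), a ratio of 0.469 (0.340 to 0.636). The striatal-type level was 4.44 times the GABAergic one in US+ (2.99 to 6.55) and 5.00 times in US- (4.08 to 6.17). GABAergic nuclei held 1.49 CPM in US+ (1.15 to 1.91) against 2.82 CPM in US- (2.37 to 3.34), a ratio of 0.529 (0.386 to 0.718). Many of these came from clusters rich in Rarb, a striatal gene. Without such clusters the GABAergic nuclei, 4042 in US+ and 3715 in US-, held 1.11 CPM in US+ against 0.760 CPM in US-, and the ratio was 1.46 (0.881 to 2.45), on the other side of 1. Glutamatergic nuclei held 2.68 CPM in US+ (24 UMIs) against 1.01 CPM in US- (8 UMIs), under the limit of 50 UMIs.

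Over clusters Vipr1 had a median of 1.21 CPM, a range of 0 to 16.3 CPM and 4 clusters at 0. Its highest clusters, chosen after their values were seen, were the striatal projection neuron-like clusters 0 (Rarb, Arhgap10, Pdzd2) and 8 (Drd2, Adora2a, Penk). Drd2, Adora2a and Penk are genes of the indirect-pathway neurons of the striatum. Cluster 0 was at 9.16 CPM in US+ against 18.3 CPM in US-, a ratio of 0.501 (0.330 to 0.736), and cluster 8 at 6.73 and 14.9 CPM, a ratio of 0.451 (0.218 to 0.843). Together they made up 540 US+ nuclei and 2116 US- nuclei and held 24% of Vipr1 UMIs in US+ and 63.2% in US-. Outside them Vipr1 was 1.63 CPM in US+ against 2.29 CPM in US-, a ratio of 0.711 (0.564 to 0.895). The ratio with clusters weighted as in both libraries together was 0.622.

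Vipr2, which encodes VPAC2, was higher in US+ over all nuclei and highest in the suprachiasmatic neuron-like cluster. That cluster held most of its UMIs in US+ but not in US-. Over all nuclei it stood at 8.21 CPM in US+ (7.62 to 8.85; 697 UMIs) against 2.30 CPM in US- (2.01 to 2.61; 227 UMIs), a ratio of 3.58 (3.08 to 4.18). GABAergic nuclei held 9.36 CPM in US+ (8.46 to 10.3) against 2.16 CPM in US- (1.76 to 2.61), a ratio of 4.34 (3.49 to 5.44). Glutamatergic nuclei held 5.13 CPM in US+ (3.76 to 6.84) against 4.04 CPM in US- (2.76 to 5.70), and the interval of the ratio, 1.27 (0.792 to 2.06), includes 1. The order of these classes differed between libraries. The glutamatergic level was 0.548 times the GABAergic one in US+ (0.395 to 0.746) and 1.87 times in US- (1.22 to 2.80). Striatal-type nuclei held 2.84 CPM in US+ (21 UMIs) against 0.504 CPM in US- (11 UMIs).

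Cluster 1 held 60.3% of Vipr2 UMIs in US+ and 34.4% in US-, at 59.3 CPM in US+ (53.8 to 65.3) against 33.4 CPM in US- (26.4 to 41.7), a ratio of 1.78 (1.39 to 2.29). Without it Vipr2 was 3.56 CPM in US+ against 1.54 CPM in US-, a ratio of 2.31 (1.88 to 2.84). Cluster 20, with more glutamate transporter than GABA transcripts and led by Tcf7l2, a transcription factor gene of the thalamus, came next, at 16.0 CPM in US+ against 7.88 CPM in US-. The antisense gene Gm20658 behaved much alike, at 9.90 CPM in US+ against 2.44 CPM in US- over all nuclei and at 73.5 CPM and 39.0 CPM in cluster 1. Gm20658 led cluster 1 and was not left out of the clustering genes. The place of Vipr2 over clusters may therefore not be independent of how they were drawn, which was not tested. Weighting clusters as in both libraries together gave a Vipr2 ratio of 1.95, and the observed shares with 1 level per cluster gave 1.93.

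**Figure D3:**
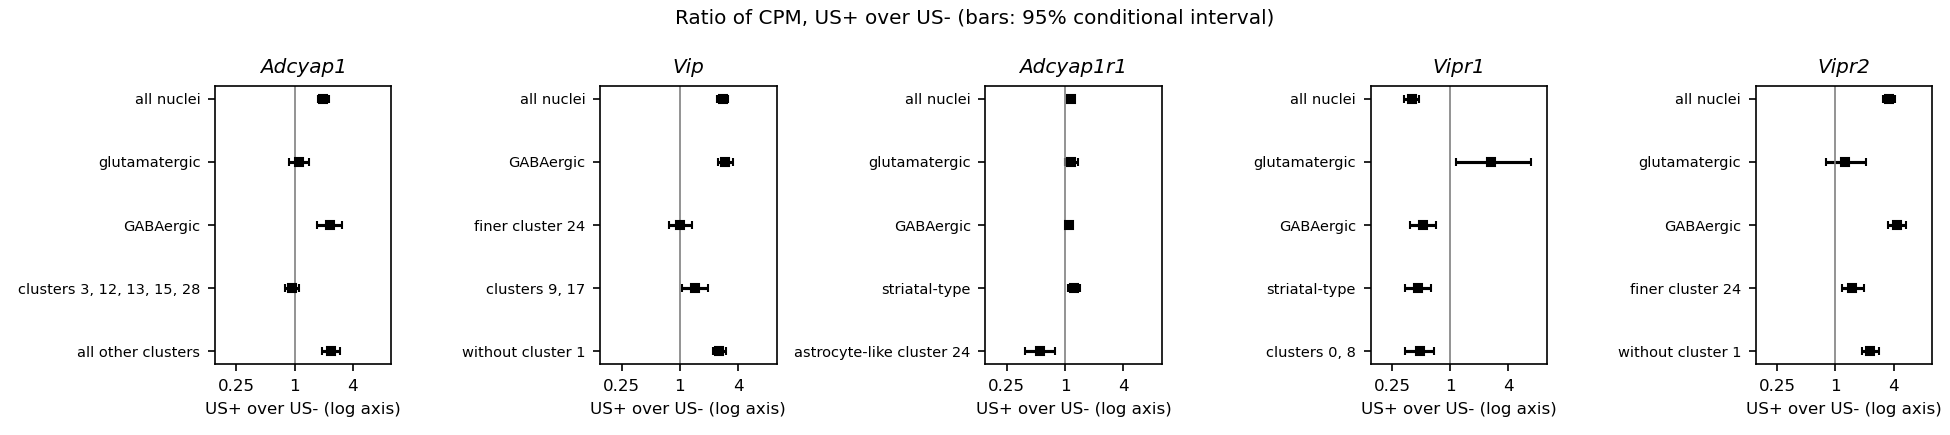
Ratio of CPM, US+ over US- (x axis, log scale; the grey line marks 1), of each gene (a panel each) in the groups of nuclei named on the left, with bars for the 95% conditional interval. Adcyap1 in its 5 highest clusters (0.937) and Vip in finer cluster 24 (1.01) lie near 1, while their ratios over all nuclei are 1.97 and 2.78.

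Cluster 1 was not uniform. At the finer clustering it fell mainly into 3 parts, and only finer cluster 24 carried the pacemaker markers: all 9 suprachiasmatic markers were at least 2-fold above the other nuclei there, 1 in finer cluster 15 and none in finer cluster 30. Finer cluster 24, led by Gm20658, Vipr2 and Lhx1 and chosen after its values were seen, held 259 US+ nuclei (2.61% of the library) and 84 US- nuclei (0.761%). Lhx1 encodes a transcription factor needed for synchrony of the pacemaker. Other clock-nucleus genes summed over both libraries were Rorb (1281 CPM), Syt10 (252 CPM), Avp (159 CPM), Six6 (24.4 CPM), Grp (19.2 CPM), Prok2 (14.0 CPM) and Nms (9.86 CPM) there.

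Vip was nearly the same in both libraries in finer cluster 24, at 161 CPM in US+ (238 UMIs) against 160 CPM in US- (71 UMIs), a ratio of 1.01 (0.769 to 1.33). These few nuclei held 31.2% of all Vip UMIs in US+ and 22.2% in US-. Vipr2 there was 246 CPM in US+ (222 to 273) against 164 CPM in US- (129 to 206), a ratio of 1.50 (1.16 to 1.96), with 52.4% of Vipr2 UMIs in US+ and 32.2% in US-. The antisense gene Gm20658 was not left out of the finer clustering either. Adcyap1r1 was 43.2 CPM in US+ against 38.2 CPM in US-, near its level elsewhere, and no Vipr1 UMI was found in either library. Finer cluster 15 had 4.64 CPM of Vip in US+ and none in US-, and 13.9 and 4.54 CPM of Vipr2. The size of the higher Vipr2 level in cluster 1 in US+ thus depends in part on how the cluster is drawn.

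Peptide and receptor UMIs were spread over nuclei in different ways. Adcyap1 had at most 5 UMIs in a nucleus of either library, and 523 US+ nuclei and 292 US- nuclei were positive. Vip reached 19 UMIs in US+ and 20 in US-, and 67 of 410 positive US+ nuclei and 27 of 163 positive US- nuclei held 50% of its UMIs. The variance of UMIs per nucleus over their mean was 4.58 for Vip in US+ and 4.85 in US-, against 1.50 and 1.62 for Adcyap1. For Vipr2 it was 4.21 in US+ and 2.83 in US-, and for Adcyap1r1 1.24 and 1.21, the values closest to 1 together with those of Vipr1 (1.24 and 1.29). Nuclei with at least 5 Vip UMIs numbered 31 in US+ and 13 in US-, of which 20 and 8 were in cluster 1. Nuclei with at least 5 Vipr2 UMIs numbered 34 in US+ and 7 in US-, of which 30 and 5 were in cluster 1. Nuclei with at least 3 Adcyap1 UMIs were nearly as many in US+ (21) as in US- (20), of which 18 and 19 lay in the 5 high Adcyap1 clusters. The excess of Adcyap1-positive US+ nuclei thus lay mostly in nuclei with 1 or 2 UMIs.

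**Figure D4:**
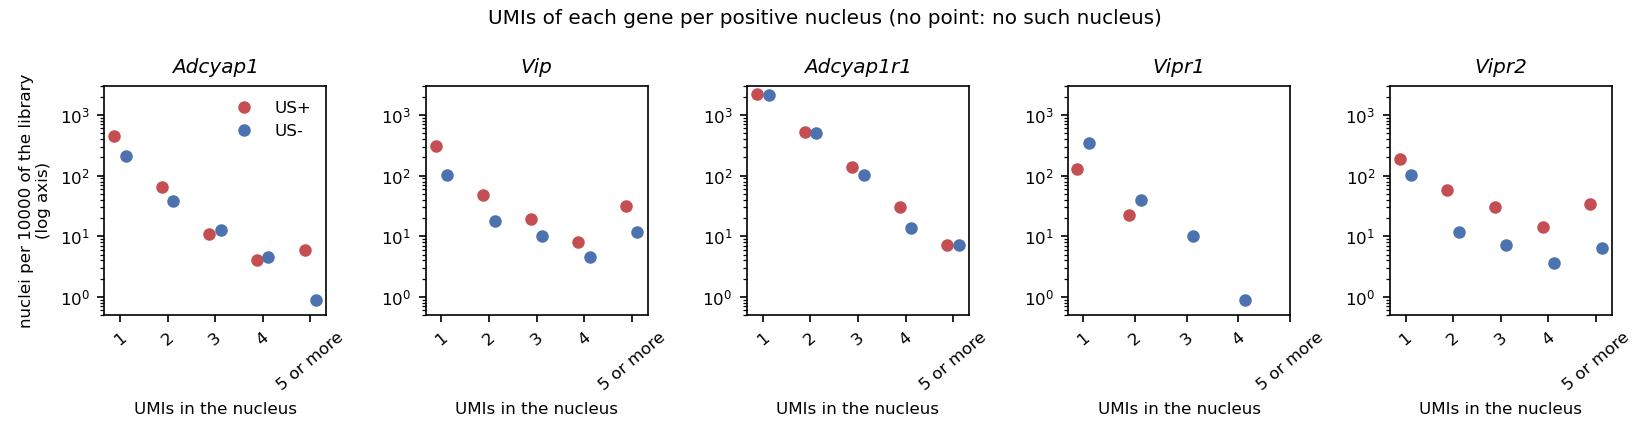
Nuclei per 10000 of the library (y axis, log scale) by the number of UMIs of each gene in the nucleus (x axis; a panel for each gene), with US+ in red left of US- in blue. Vip and Vipr2 have nuclei with 5 or more UMIs (31 and 34 in US+, 13 and 7 in US-), whereas Vipr1 does not exceed 4.

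Shares of positive nuclei were compared after thinning every nucleus to 2000 UMIs at random, with the unthinned share in brackets. Adcyap1 was found in 1.48% (5.28%) of US+ nuclei and 0.824% (2.64%) of US- nuclei. In the glutamatergic class it was 3.37% (11.3%) in US+ and 3.02% (9.87%) in US-, and in clusters 3 and 28 together 5.0% (16.1%) and 5.66% (13.7%). Cell types not known for Adcyap1 gave the background. It was 0.926% (2.22%) in US+ and 0.378% (0.709%) in US- for the striatal projection neuron-like clusters. For the astrocyte-like cluster it was 1.05% (2.11%) and 0 of 81 nuclei, which allows up to 3.70% (1.23%). The GABAergic share was 0.863% (2.83%) in US+ and 0.332% (1.17%) in US-. In each library it was at or below that striatal background after thinning and above it without thinning. The thinned background rests on 5 US+ nuclei and 8 US- nuclei. In CPM those striatal clusters held 2.44 in US+ and 0.813 in US-, also below the GABAergic levels. The GABAergic share is read neither as expression nor as a difference between libraries.

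Vip was found in 1.63% (4.14%) of US+ nuclei and 0.543% (1.48%) of US- nuclei, and in 1.83% (4.66%) and 0.624% (1.62%) of GABAergic nuclei. The striatal projection neuron-like clusters gave a background of 1.30% in US+ and 0.284% in US-, and the astrocyte-like cluster one of 3.68% and 1.23%, both above or close to many neuronal shares. In cluster 1 the share was 4.40% (6.71%) in US+ and 3.22% (4.68%) in US-. The higher Vip share of US+ was thus seen in the background cells as well. Median depths were 8034 UMIs in US+ and 8300 UMIs in US- for GABAergic and 10550 and 9211 UMIs for striatal-type nuclei.

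Adcyap1r1 was found in 8.98% (29.5%) of US+ nuclei and 8.13% (27.6%) of US- nuclei. The oligodendrocyte-like cluster had 4.17% in US+ and 2.17% in US-, and the astrocyte-like cluster 16.8% (33.7%) and 27.2% (51.9%). Vipr1 was found in 0.333% (1.50%) of US+ nuclei and 0.960% (3.90%) of US- nuclei, with 1.30% (6.48%) and 3.02% (12.8%) in the striatal projection neuron-like clusters. Vipr2 was found in 1.43% (3.24%) of US+ nuclei and 0.462% (1.32%) of US- nuclei, and in 8.41% (13.5%) and 5.85% (9.06%) of cluster 1. Its background in the striatal projection neuron-like clusters was 0 of 540 US+ nuclei, which allows up to 0.556%, and 0.142% in US-. In the astrocyte-like cluster no nucleus was positive for Vipr1 or Vipr2 after thinning. Unthinned, Vipr2 was in 4 of 190 US+ nuclei (2.11%) and 1 of 81 US- nuclei (1.23%), and Vipr1 in 2 and 0.

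Co-detection of ligand and receptor in the same nucleus was sparse. PAC1 transcripts were found in 10.2% of Adcyap1-positive US+ nuclei (15 of 147 after thinning) and 4.40% of those in US- (4 of 91), against 8.96% and 8.16% of Adcyap1-negative nuclei. Unthinned, the shares were 32.9% in US+ and 28.1% in US- for positive nuclei, and 29.3% and 27.6% for negative nuclei, so Adcyap1r1 was about as frequent with and without its ligand. Among Vip-positive nuclei Adcyap1r1 was found in 9.26% in US+ and 6.67% in US-, against 8.97% and 8.13% of Vip-negative nuclei. Vipr2 was found in 5.56% of Vip-positive US+ nuclei (9 of 162; 2.57 to 10.3) and 1.67% of those in US- (1 of 60; 0.0422 to 8.94), against 1.36% and 0.455% of Vip-negative nuclei. Vipr1 was found in 1 Vip-positive US+ nucleus and in 0 of 60 in US-. Both peptide genes were found together in 2 US+ nuclei and 0 US- nuclei after thinning, and in 18 and 2 without it.

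Within finer cluster 24, where both Vip and Vipr2 were high, Vipr2 was not more frequent in nuclei with Vip than in nuclei without it. Vip was found in 50 of 259 US+ nuclei (19.3%) and 12 of 84 US- nuclei (14.3%), and Vipr2 in 103 (39.8%) and 26 (31.0%), without thinning. Vipr2 was found in 34% of the Vip-positive US+ nuclei (17 of 50; 21.2 to 48.8) and 8.33% of those in US- (1 of 12; 0.211 to 38.5), against 41.1% and 34.7% of the Vip-negative ones. Different companion genes went with each member. Lhx1 was found in 74% of Vip-positive nuclei in US+ (59.7 to 85.4) and 83.3% in US- (51.6 to 97.9), against 32.5% and 36.1% of Vip-negative nuclei. In contrast it was in 22.3% of Vipr2-positive nuclei in US+ and 26.9% in US-, against 52.6% and 50% of Vipr2-negative nuclei, where the intervals are apart in US+ and overlap in US-. Rorb, a gene of an orphan nuclear receptor, was found in 95.1% of Vipr2-positive nuclei in US+ (89.0 to 98.4) and 92.3% in US- (74.9 to 99.1), against 60.3% of Vipr2-negative nuclei in each. Grp, a peptide gene of the suprachiasmatic core, was found in 24% of Vip-positive US+ nuclei against 3.83% of Vip-negative ones, and in none of the 12 Vip-positive US- nuclei. Avp, which encodes vasopressin and marks the shell, was in 45.6% of Vipr2-positive nuclei in US+ and 42.3% in US-, against 28.2% and 24.1% of negative ones, with overlapping intervals.

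Thinning these nuclei to 2000 UMIs kept the patterns of Lhx1 and Rorb. Lhx1 was then in 52.6% of Vip-positive nuclei in US+ and 72.7% in US-, against 19.9% and 26.0% of negative ones. Rorb was in 92.9% of Vipr2-positive nuclei in US+ and 77.8% in US-, against 53.4% and 51.5%, where the US- intervals overlap. The other patterns were not kept. Grp was in 10.5% of Vip-positive US+ nuclei (2.94 to 24.8) against 2.26% of negative ones (0.739 to 5.20), with overlapping intervals. Avp was in 27.1% of Vipr2-positive nuclei in US+ and 16.7% in US-, against 18.0% and 18.2%, so its direction turned in US-.

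**Figure D5:**
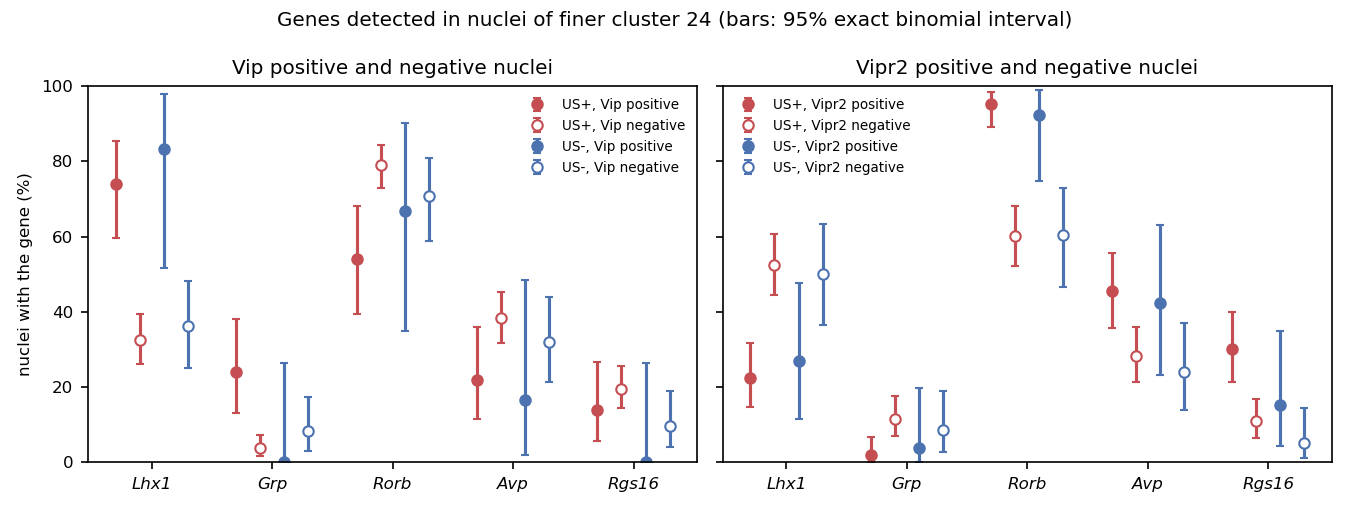
Percent of nuclei of finer cluster 24 with at least 1 UMI of 5 suprachiasmatic genes (y axis, not thinned), in nuclei positive (filled) or negative (open) for Vip (left) and Vipr2 (right), US+ in red and US- in blue, with 95% exact binomial intervals. Lhx1 goes with Vip (74.0% of positive nuclei in US+, 83.3% in US-) and Rorb with Vipr2 (95.1% and 92.3%).

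The study singled out preoptic neurons with Adcyap1, Qrfp and Esr1, and asked which ion channel, among them Trpm2, they carry. It reported high Trpm2 in a cluster of these neurons rich in early genes. It also used in situ hybridization, overexpression and knockdown, which the shares given here do not address. Thinned shares were compared first, since a nucleus with more UMIs is more often positive for any gene. Bdnf, which encodes a neurotrophic factor and marks warm-responsive preoptic neurons together with Adcyap1, was in 6.12% of Adcyap1-positive nuclei in US+ (2.84 to 11.3) and 8.79% in US- (3.87 to 16.6), against 2.13% and 1.47% of Adcyap1-negative nuclei. Unthinned, it was in 21.6% in US+ and 23.6% in US-, against 5.94% and 4.70%, so Bdnf was more frequent with Adcyap1 beyond counting error in both libraries. Esr1 was in 12.9% of Adcyap1-positive nuclei in US+ and 16.5% in US-, against 13.5% and 8.07% of negative ones, so that it differed beyond counting error in US- only. Unthinned, Esr1 was in 39.4% in US+ and 30.1% in US-, against 27.3% and 17.9%. Trpm2 was in 6.12% in US+ (2.84 to 11.3) and 10.99% in US- (5.40 to 19.3), against 4.21% and 4.61%, and in 19.9% and 20.2% unthinned, against 16.2% and 18.2%.

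Opn5, Ptger3, which encodes the prostaglandin E2 receptor of the fever response, and Lepr, which encodes the leptin receptor, were each in 5 or fewer thinned Adcyap1-positive nuclei of a library. Unthinned, Opn5 was in 5.35% of Adcyap1-positive nuclei in US+ and 8.22% in US-, against 2.62% and 2.46% of negative ones, and Lepr in 7.07% and 7.88%, against 3.44% and 2.83%. Ptger3 was in 6.5% in US+ and 12% in US-, against 4.12% and 3.69%. Qrfp was found in 3 Adcyap1-positive US+ nuclei and 0 US- nuclei.

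At least 1 of the immediate-early genes Fos, Fosb, Nr4a1, Egr1 and Dusp1, which mark recent neuronal activity, was found after thinning in 8.84% of Adcyap1-positive nuclei in US+ (4.79 to 14.6) and 4.40% in US- (1.21 to 10.9), against 9.99% and 4.39% of Adcyap1-negative nuclei. Unthinned shares were 24.1% in US+ and 18.5% in US-, against 23.9% and 15.6%. Early genes were thus not detectably more frequent in nuclei with Adcyap1 than in the rest of the same library. Vip-positive nuclei had 8.64% in US+ and 3.33% in US-, against 10.00% and 4.40%, and Vipr2-positive nuclei 8.45% and 1.96%, against 10.00% and 4.40%. Adcyap1r1-positive nuclei had 9.33% in US+ (7.50 to 11.4) and 2.899% in US- (1.90 to 4.22), against 10.0% and 4.53%.

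Vipr1-positive nuclei stood apart, with 24.2% in US+ (8 of 33; 11.1 to 42.3) and 9.43% in US- (10 of 106; 4.62 to 16.7), against 9.93% and 4.34% of Vipr1-negative nuclei. Within striatal-type nuclei, 4 of 7 Vipr1-positive US+ nuclei and 7 of 58 US- nuclei were positive for an early gene, against 32.1% and 5.51% of Vipr1-negative ones, and the intervals overlap in both libraries. Unthinned, the striatal-type shares were 78.0% in US+ and 22.3% in US-, against 67.4% and 18.3%.

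Among the Adcyap1 clusters, the Opn5 cluster 28 had the highest Fos ratio. Fos was 27.5 CPM in US+ against 6.04 CPM in US- there, a ratio of 4.56 (1.70 to 15.3; 24 and 5 UMIs). Egr1 was 36.7 CPM in US+ and 10.9 CPM in US-, a ratio of 3.38 (1.575 to 8.04). Npas4 was 34.4 and 9.66 CPM, a ratio of 3.56 (1.595 to 8.99). Over all nuclei the ratios were 4.09 for Fos, 2.02 for Egr1 and 5.53 for Npas4, each within its cluster 28 interval. The cluster's Nr4a1 ratio was 2.71 (1.10 to 7.59), and Fosb had 9 UMIs in US+ and 0 in US-. Intervals of its other listed early genes (Dusp1, Per1, Sik1, Arc and Junb) include 1. Bdnf was 111 CPM in US+ against 64.0 CPM in US-, a ratio of 1.74 (1.23 to 2.48), while the ratio was 0.681 (0.545 to 0.849) for Opn5 and 0.671 (0.494 to 0.906) for Ptger3. Lepr stood at 76.8 CPM in US+ against 73.6 CPM in US-, its highest cluster with both libraries summed. Bdnf went the other way in cluster 3, at a ratio of 0.599 (0.469 to 0.763), and in cluster 12, at 0.535 (0.395 to 0.732). Its intervals in clusters 13 and 15 include 1. Fos in the other 4 clusters was 2.81 CPM in US+ against 2.50 CPM in US- (cluster 3), 3.54 and 4.14 CPM (cluster 12), 5.85 and 3.26 CPM (cluster 13) and 4.00 and 11.6 CPM (cluster 15), with no common direction and a ratio of 0.346 (0.158 to 0.745) in cluster 15. In cluster 1 as a whole Fos was 2.54 CPM in US+ against 3.42 CPM in US-. Only the part of cluster 1 in finer cluster 24 carried the full set of suprachiasmatic markers. Other early genes were higher in US+ beyond counting error outside cluster 28 as well. Egr1 was 9.75 CPM in US+ against 3.42 CPM in US- in cluster 1, a ratio of 2.85 (1.37 to 6.85), and had a ratio of 3.10 (1.33 to 8.35) in cluster 3. Junb had a ratio of 2.48 (1.34 to 4.86) in cluster 3.

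Other genes of the pathway were read as lists, each by its count past the fold and its median ratio over all nuclei, beside a median of 1.04 for all genes. Of the other secretin-glucagon genes, 4 of 10 had enough UMIs, 2 were higher and none lower (7.67% and 3.36% of all genes), with a median of 1.45. Ghrh, which encodes growth hormone-releasing hormone, was 1.97 CPM in US+ against 0.930 CPM in US-, and Glp2r, a receptor for a gut glucagon-like peptide, 47.8 and 54.8 CPM. Of 23 genes of the cAMP arm, none was higher and 2 lower, with a median of 0.994. Over all genes 7.67% were higher and 3.36% lower. Both lower genes encode the forms of the striatum: Adcy5, its adenylyl cyclase, was 84.5 CPM in US+ against 153 CPM in US-, and Gnal, its stimulatory G protein, 192 and 306 CPM. Within classes Adcy5 had a ratio of 0.645 (0.611 to 0.680) in striatal-type nuclei, past the fold, 0.714 in GABAergic and 0.996 in glutamatergic nuclei, and Gnal was past it in none of the 3. No cAMP gene was past the fold in glutamatergic or GABAergic nuclei. In striatal-type nuclei 5 were higher, among them Prkar2a, a regulatory subunit of protein kinase A (1.94), and Gnas, the general stimulatory G protein (1.78), and 1 was lower, against 6.39% and 8.88% of all genes. Adcy7 had the highest ratio, at 17.3 CPM in US+ against 11.7 CPM in US-.

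Of 9 genes of peptide processing and release, 2 were higher over all nuclei and none lower, with a median of 1.18 (7.67% and 3.36% of all genes). Scg2, a granin of dense-core vesicles and itself an activity-induced gene, was 165 CPM in US+ against 101 CPM in US-. CREB target early genes had the highest median, 2.04, with 8 of 10 higher and none lower, against 7.67% and 3.36% of all genes. Fosb was 13 CPM in US+ against 0.657 CPM in US-, a ratio of 19.8, and Dusp1, a phosphatase gene, had the lowest ratio, 1.23. The list's median was 1.09 in glutamatergic nuclei, with 1 of 8 higher (3.2% of all genes), 2.14 in GABAergic nuclei, with 7 of 10 higher (5.14%), and 7.04 in striatal-type nuclei, with all 10 higher (6.39%). Of these 3 classes, the early-gene medians were thus lowest in the glutamatergic one, where Adcyap1 was highest. Companions of Adcyap1 had a median of 1.21, with only Esr1 higher (103 CPM in US+, 65.7 CPM in US-), and suprachiasmatic companions of Vip one of 1.75, with 6 of 10 higher (7.67% of all genes), among them Six6 (1.07 CPM in US+, 0.263 CPM in US-).

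The genes whose level over the 35 clusters was most like each member's were ranked by Pearson's r of log2(CPM + 1), both libraries summed, over 14150 genes. The points share libraries and depth, so r is a description. For Adcyap1 they were Chst8 and Cngb1 (r = 0.80 each), Pepd (0.78), Npffr1 and Bdnf (0.76 each). For Vip the highest were Cops3 (0.70), Csta2 and Lrp3 (0.65 each), and for Adcyap1r1 Nosip (0.75), Cfap161 (0.72) and Epdr1 (0.71). Vipr1 had the closest companions, Kctd1 (0.88), Synpo (0.86) and Cdk17, R3hdm1 and Crym (0.85 each). Vipr2 was closest to its antisense partner Gm20658 (0.80), then to Lhx1 (0.61). Among the members themselves, Vip and Vipr2 had r = 0.45, Vip and Adcyap1r1 0.41, and Adcyap1 and Adcyap1r1 0.16.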

How the data were processed

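Nuclei of the POA of 4 ultrasound-stimulated mice (US+) and 4 sham mice (US-) were each sequenced as 1 library. The deposited matrices hold UMI counts per gene and nucleus, made by the authors with Cell Ranger 6.1.1 on mm10 per the submitters' processing notes. They are whole numbers and were not normalized per nucleus here. The study's methods name the reference release and default parameters for the counting, and do not state strand.

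Nuclei were filtered as stated in the report, with 32285 genes kept in the totals. UMIs were summed per library and group of nuclei, scaled to CPM and given exact 95% intervals (Python 3.11.15, numpy 2.4.6, scipy 1.17.1, pandas 2.3.3). With 1 library for each group no test was run. A count of 0 allows up to 3 counts of the total.

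Nuclei of both libraries were clustered in Seurat 5.3.0 (R 4.3.3) along the study's steps. LogNormalize used a scale factor of 10000, 3961 features were used after 39 of 4000 variable features (members and immediate-early genes) were removed, the mitochondrial share was regressed out, and 40 principal components were clustered by Louvain at resolution 0.8. Clusters were named only from marker lists. Scrublet (scanpy 1.11.5) called 0 nuclei as doublets and so did not work. Doublets were limited by the upper bound of 7500 genes, and leaving out the highest 9% of Scrublet scores was tried as an alternative. edgeR 4.0.16 gave TMM factors as another alternative. The intervals and the thinning were tested on simulated counts drawn independently. That test cannot show how the intervals fare with clumped UMIs such as those of Vip and Vipr2.

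The 5 members and all gene lists were chosen with earlier results of these data known. Besides the members, the text names the genes with the highest and lowest ratio of each list (at least 100 UMIs) with up to 2 more, for each cluster no more than 3 leading genes, and for each member up to 5 genes of most similar level over clusters (500 UMIs or more).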

Additional observations from a re-analysis of the deposited data

Results flagged for a closer look

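Vipr1 lay on different sides of 1 in different classes. Its US+ to US- ratio was 2.65 in glutamatergic nuclei (1.15 to 6.83; 24 UMIs in US+, 8 UMIs in US-), 0.529 in GABAergic nuclei and 0.469 in striatal-type nuclei. The glutamatergic value is under the limit of 50 UMIs, and without Rarb-rich clusters the GABAergic ratio was 1.46, on the same side of 1. The difference was not tested, since each class has 1 library for each group.

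Both peptide genes were also found in barcodes that were left out for holding under 2000 UMIs, of which US+ had 1987 and US- 623. Adcyap1 was 18 CPM in US+ (34 UMIs), against 6.31 CPM in US- (4 UMIs), a ratio of 2.86 (1.02 to 11.1). Vip was 35 CPM in US+ (66 UMIs), against 7.89 CPM in US- (5 UMIs), a ratio of 4.44 (1.81 to 14.1). Neither difference was tested.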

How the results depend on the processing

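The ratios of US+ over US- over all nuclei moved most with how clusters and classes were weighted, beyond their counting intervals, and none of the 4 members past the fold turned its direction there. Clusters weighted as in both libraries together, an alternative chosen after seeing the data, gave 1.20 for Adcyap1, 1.6 for Vip, 1.04 for Adcyap1r1, 0.622 for Vipr1 and 1.95 for Vipr2. Equal weight for each cluster gave 1.31 for Adcyap1, 1.32 for Vip, 0.974 for Adcyap1r1, 0.755 for Vipr1 and 2.22 for Vipr2, so that Adcyap1, Vip and Vipr1 were no longer past the fold and Adcyap1r1 was on the other side of 1. Equal weight for each class gave 1.38 for Adcyap1, 0.599 for Vipr1 and 2.50 for Vipr2. Without the 8 clusters with over 75% of nuclei from 1 library, the values were 1.73 for Adcyap1, 1.08 for Adcyap1r1, 0.602 for Vipr1 and 2.24 for Vipr2. The 75% applies to shares corrected for the number of nuclei kept in each library. Without cluster 1, also chosen after seeing the data, Vipr2 was at 2.31.

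Within classes 3 values turned: equal weight for each cluster gave 0.983 for Vip in GABAergic and 0.487 for Adcyap1 in striatal-type nuclei, and leaving out Rarb-rich clusters, chosen after seeing the data, gave 1.46 for Vipr1 in GABAergic nuclei. Equal weight counts a cluster of few nuclei as much as a large one, so the values from it can rest on few UMIs. The cause of the turns was not tested. Stricter class limits moved the glutamatergic over GABAergic ratio in US- to 18.9 for Adcyap1, 0.146 for Vip and 2.93 for Vipr2.

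TMM scaling, at most 1% mitochondrial UMIs and minimums of 1000 or 4000 UMIs left every value tried (20, 20, 30 and 30 values) within its counting interval. Without the highest Scrublet scores 71 of 74 values stayed within it. Since Scrublet did not work here, that alternative cannot show how doublets affect the values. Leaving out the glial and vascular clusters, chosen after seeing the data, kept all 5 members over all nuclei within their counting intervals. No paired analysis was possible because each group is 1 library. Depth limits Vip and Vipr1 in glutamatergic nuclei and Vipr2 in striatal-type nuclei, each under 50 UMIs, and the co-detection of pairs, which rests on 15 nuclei or fewer after thinning.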
